A study of Mus musculus with 138 samples.

Results

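The genes described here are 7 genes of airway epithelium with roles in cell protection, protein folding stress and ion transport: SPRR2A, CAPN9, ERN2, SCIN, ADRA2A, SLC26A4 and FXYD4. They were taken by target name, with every probe of each, which gave 11 probes of 7 of the 31490 names on the array. The 7 were chosen by measured values: in these same mice their log2 levels moved with genes of mucous cells and of the allergic (type 2) response. Their relation to CLCA3 and CCL24 is therefore given as a description, with no test. RNA of whole lung from 138 mice was hybridised to Illumina WG6v2 bead arrays, each mouse from a different line of the incipient Collaborative Cross. These partly inbred lines descend from 8 founder strains (129S1/SvImJ, A/J, C57BL/6J, CAST/Ei, NOD/LtJ, NZO/H1LtJ, PWK/Ph and WSB/Ei). All 138 mice form 1 group. Each was sensitized in the abdominal cavity with 10 ug of Der p 1, a house dust mite allergen, was challenged with 50 ug of it on day 15 and was sampled on day 18, 72 hours later. Untreated mice and founders were not analysed here, so values are compared between challenged mice, and no effect of Der p 1 can be read from them. Age and sex are not given in the sources used here, and with 1 mouse a line, differences between lines and between mice cannot be told apart.

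In allergic airways the cytokines IL-4 and IL-13 act on epithelial cells, which turn to making mucus. CLCA3 is a protein secreted by mucous (goblet) cells, known today in the mouse as Clca1, and CCL24 (eotaxin-2) is a chemokine that draws eosinophils. Mucous cells carry a heavy load of secreted protein through the endoplasmic reticulum, and the salt and bicarbonate moved across the epithelium set how thick the mucus becomes. Among the 7 genes, SPRR2A encodes a small proline-rich protein that is cross-linked into the tough envelope of squamous cells. CAPN9 is a calcium-dependent protease known from the stomach and gut, and SCIN (adseverin) is a calcium-dependent protein of the gelsolin family that severs actin filaments. ERN2 (IRE1 beta) is the sensor of unfolded protein in the endoplasmic reticulum of mucus-secreting epithelia. ADRA2A is the alpha-2A adrenergic receptor. SLC26A4 (pendrin) exchanges chloride for bicarbonate and other anions, and FXYD4 is a small membrane protein that adjusts the sodium pump, known from kidney and colon.

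Detected probes numbered 19075 to 21472 per array (median 20426.5) out of 45281, and the median unprocessed intensity was 32.1 to 68.7. Levels are the normalized log2 intensities deposited by the authors, in which a step of 1 is a doubling, and a probe counted as detected in a mouse at a detection p under 0.05. Markers of the labelled tissue were present: Sftpb and Sftpc, surfactant proteins of alveolar type 2 cells, and Scgb1a1, the secretory protein of club cells, were detected in 138 of 138 mice. In RNA from whole lung, more cells of a type and more RNA per cell cannot be told apart. The number of arrays limits the precision.

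All 7 genes ranged widely between mice. The smallest of their SDs was 0.97 log2, a value reached by 2.56% of the 16617 genes measured, against a median SD of 0.29. A choice made on levels that move between these mice favours genes of wide spread, so the SDs are given as a description. The 7 genes were all detected in 95 mice, 6 of them in 23 mice, 5 in 6 mice, 4 in 9 mice and 3 in 5 mice, and no mouse lacked more. The level of SPRR2A was 5.31 at its lowest, 7.20 at the median and 11.8 at its highest, with a mean of 7.47 ± 1.61 (SD, n = 138). SPRR2A had the widest span of the 7, with a 95th percentile 33.5-fold above its 5th, and was not detected in 19 mice. CAPN9 had a lowest, median and highest level of 5.14, 6.78 and 10.3 (mean 6.91 ± 1.10) and was not detected in 23 mice. The SCIN values were 5.02, 7.56 and 10.8 (mean 7.44 ± 1.46), and 20 mice had no detected signal. CAPN9 spanned 9.38-fold between its 5th and 95th percentiles, and SCIN ran from 5.37 at the 5th to 9.69 at the 95th. For ERN2 the lowest, median and highest levels were 5.42, 6.96 and 9.83 (mean 7.02 ± 0.97), and 4 mice had no detected signal. The receptor ADRA2A lay at 5.33, 7.80 and 10.4 (mean 7.70 ± 1.17), undetected in 7 mice. ERN2 had the narrowest span, 8.44-fold, and ADRA2A spanned 12.1-fold.

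Both transport genes had wide spans but were detected in different numbers of mice. SLC26A4 was detected in every one of the 138 mice, at 6.51, 10.1 and 12.2 for the lowest, median and highest mouse (mean 9.94 ± 1.36), a span of 20.8-fold. FXYD4 lay at 5.24, 7.55 and 10.9 (mean 7.63 ± 1.40), was not detected in 9 mice and spanned 19.8-fold. CLCA3 ran from 4.99 through a median of 11.85 to 13.1 and was not detected in 2 mice. Its 95th percentile was 12.8 and its highest value 13.1, close to the top of the deposited scale at 13.4. CCL24 ran from 5.38 through 6.49 to 10.5 and was not detected in 19 mice. These levels are log2 intensities of separate probes and are not compared between genes.

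**Figure D1:**
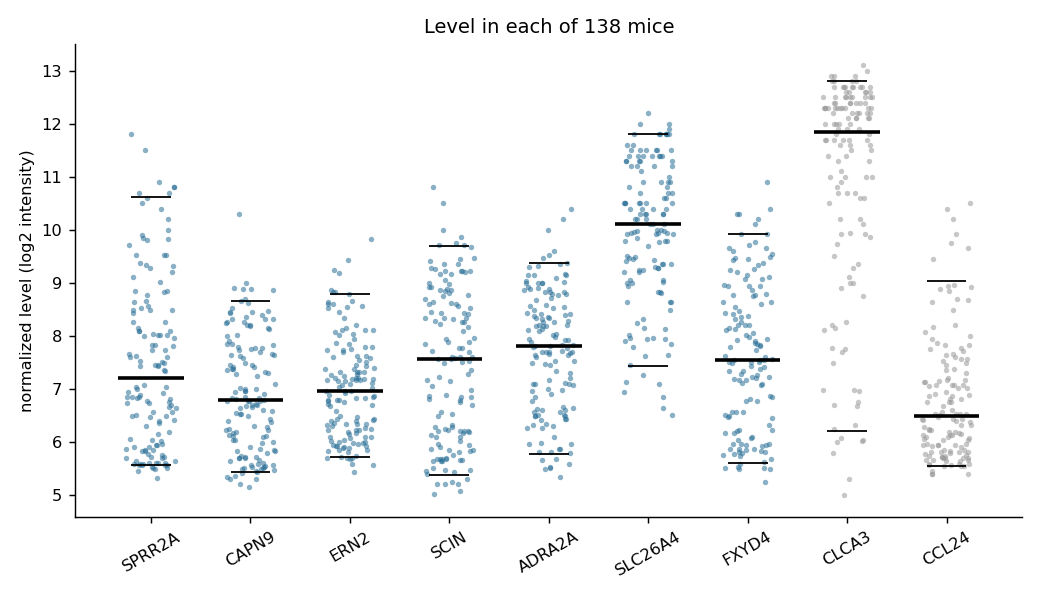
Level of each gene in each of 138 mice, in normalized log2 intensity, with 1 point per mouse (blue for the 7 genes described, grey for CLCA3 and CCL24), a thick bar at the median and thin bars at the 5th and 95th percentiles. SPRR2A has the widest span of the 7 and CLCA3 crowds towards its top (median 11.85, highest 13.1).

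Of the 11 probes, 10 were detected in at least 14 mice and kept. Among the kept probes of a gene, the brightest on average stands for it. The FXYD4 probes moved together (r = 0.99 over 138 mice), as did the CLCA3 probes (r = 0.998). The second CAPN9 probe was detected in 2 mice. SPRR2A has 3 kept probes that did not move together. The probe used here (ILMN_2657431) is the one described above. The other probes, ILMN_3150677 and ILMN_3071908, had SDs of 0.31 and 0.11, and their r with the first was 0.176 and 0.128. Their r with CLCA3 was 0.098 and 0.085. All that follows on SPRR2A therefore rests on 1 of its 3 probes. The target name also covers near-identical gene copies, today Sprr2a1, Sprr2a2 and Sprr2a3, and which of them the probes read is uncertain, since probe sequences were not used here.

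Across the 138 mice all 7 genes rose with both CLCA3 and CCL24, and they differed in which of the 2 they followed more closely. The r with CLCA3 was higher for 5 genes and the r with CCL24 for 2. CAPN9 had an r of 0.804 with CLCA3 and 0.317 with CCL24. For ERN2 these were 0.713 and 0.209, and for SCIN 0.675 and 0.270. ADRA2A stood at 0.641 with CLCA3 and 0.337 with CCL24. In these 4 genes the tie to the mucous gene was the closer one. SPRR2A had an r of 0.631 with CLCA3 and 0.546 with CCL24. SLC26A4 was tied about as closely to both, at 0.612 and 0.618. FXYD4 was the reverse of the first 4, with 0.466 for CLCA3 and 0.645 for CCL24. CLCA3 and CCL24 themselves correlated at 0.357 over the same arrays. Without the 2 mice whose CLCA3 lay farthest from its median, the r with CLCA3 ran from 0.440 in FXYD4 to 0.805 in CAPN9.

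The relation to CLCA3 was curved in CAPN9, ERN2 and SPRR2A. CAPN9 stayed near its floor over the lower part of the CLCA3 range and climbed towards its top, and its rank correlation (rho = 0.910) was higher than its r of 0.804. The same held for ERN2 (rho 0.798) and SPRR2A (rho 0.719), while SCIN (0.680), ADRA2A (0.657) and SLC26A4 (0.611) had a rho close to their r. No mouse with CLCA3 above its median lacked a detected CAPN9, SPRR2A or ERN2 signal: all 23 mice without CAPN9, all 19 without SPRR2A and all 4 without ERN2 lay at or below the CLCA3 median of 11.85. SCIN behaved less strictly, since 4 of the 20 mice without a detected signal had CLCA3 above the median. The counts were 2 of 9 for FXYD4 and 2 of 7 for ADRA2A. FXYD4 instead had none of its 9 undetected mice above the CCL24 median of 6.49.

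**Figure D2:**
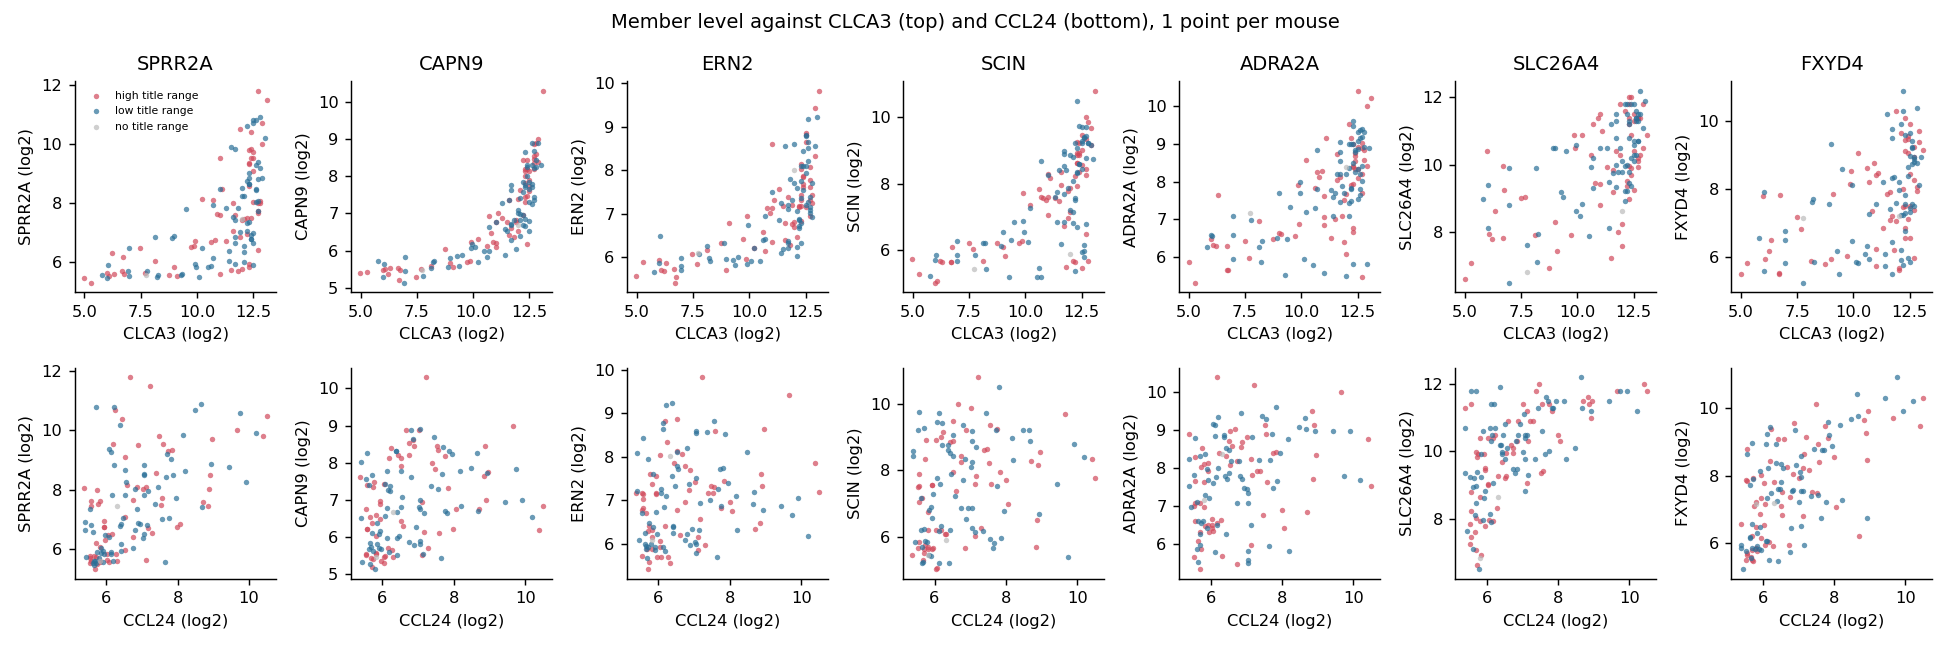
Level of each gene (vertical axis, log2) against CLCA3 (upper row) and CCL24 (lower row, both log2) in 138 mice, 1 point per mouse, coloured by the range of the number in the mouse's title (red high, blue low, grey none). CAPN9 follows CLCA3 as a narrow curve (rho 0.910), FXYD4 has an r of 0.466 with CLCA3 and 0.645 with CCL24, and SLC26A4 has 0.612 and 0.618; red and blue points overlap throughout.

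With both levels in 1 model, the slopes set the 7 genes apart as follows. A slope is the difference in log2 level for a difference of 1 SD in CLCA3 or CCL24 with the other held, and its SE and interval describe its precision only, since the genes were chosen on these relations. CAPN9 had a slope of 0.87 ± 0.06 on CLCA3 and 0.038 ± 0.060 on CCL24 (SE, n = 138). ERN2 had 0.71 ± 0.06 and -0.05 ± 0.062, and SCIN had 0.97 ± 0.10 and 0.048 ± 0.099. In these 3 genes the slope on CCL24 was small beside that on CLCA3, as in ADRA2A, whose slopes were 0.70 ± 0.08 on CLCA3 and 0.145 ± 0.081 on CCL24. SPRR2A kept slopes of 0.81 ± 0.10 on CLCA3 and 0.59 ± 0.10 on CCL24. For SLC26A4 the slopes were 0.61 ± 0.08 and 0.62 ± 0.08. Their difference, CLCA3 minus CCL24, was 0.21 for SPRR2A (95% interval -0.12 to 0.55) and -0.01 for SLC26A4 (-0.28 to 0.26). FXYD4 had the smaller slope on CLCA3, 0.38 ± 0.09, against 0.77 ± 0.09 on CCL24, a difference of -0.39 (-0.69 to -0.09). The differences in the other 4 genes ran from 0.55 in ADRA2A (0.29 to 0.82) to 0.92 in SCIN (0.60 to 1.24).

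**Figure D3:**
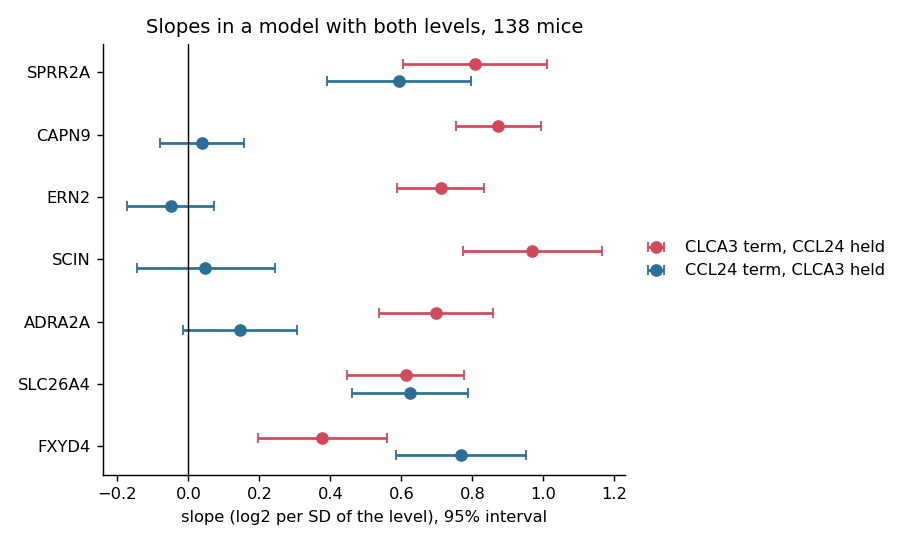
Slope of each gene (log2 per SD) on CLCA3 with CCL24 held (red) and on CCL24 with CLCA3 held (blue), with 95% intervals, from 138 mice. CAPN9, ERN2, SCIN and ADRA2A have the larger slope on CLCA3, SLC26A4 has nearly equal slopes (0.61 on CLCA3, 0.62 on CCL24) and FXYD4 has 0.38 on CLCA3 and 0.77 on CCL24.

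In single mice the signals of the genes came apart. The mouse of line OR900 had the highest CLCA3 (13.1) and also the highest CAPN9 (10.3), ERN2 (9.83) and SCIN (10.8), with CCL24 at 7.21. Without it, r with CLCA3 was 0.812 for CAPN9, 0.716 for ERN2 and 0.673 for SCIN. CLCA3 was not detected in 2 mice, of lines OR1234 and OR167. In OR1234 and OR167, SLC26A4 stood at 7.09 and 6.63 and was detected in both, while SPRR2A (5.31 and 5.48) and CAPN9 (5.43 and 5.41) were detected in neither. Both mice had low values of all 7 genes. In OR5410, SLC26A4 reached 10.4 although CLCA3 was 5.99 and CCL24 6.03, and SCIN, at 5.02, was the lowest of all mice. In OR3612 the reverse was seen for SCIN, which was not detected (5.38) although CLCA3 was 12.2, CCL24 9.75, SPRR2A 10.6 and FXYD4 10.9, the highest of all mice. These 2 mice therefore had SCIN at its floor at opposite ends of the CLCA3 range. ADRA2A was not detected in OR5091 (5.48), where CLCA3 was 12.7 and CAPN9 8.53. In OR5513, CCL24 was 10.4 and SLC26A4 12.0, with CAPN9 at 6.18 under a CLCA3 of 12.4. FXYD4 stood at 6.22 in OR5480, where CCL24 was 8.70 and SLC26A4 11.5. Each of these is 1 array, with no repeat of the line. ERN2, SCIN, ADRA2A and SLC26A4 have 1 probe each, so a low or undetected signal of theirs could not be checked on another probe. Whether sequence differences between the founder strains affect what a probe reads was not tested.

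The 7 genes also moved with each other. Their 21 pairs had an r of 0.429 to 0.744 (median 0.596, n = 138). FXYD4 and SLC26A4 formed the closest pair (0.744), followed by SPRR2A with FXYD4 (0.743). The lowest r was that of SCIN and FXYD4 (0.429). With CLCA3 and CCL24 held, the pairs ran from 0.099, for ERN2 with SLC26A4, to 0.544, for SPRR2A with FXYD4, with a median of 0.288. FXYD4 and SLC26A4 kept a partial r of 0.5. All pairs were measured on the same arrays, and the genes were chosen for moving with shared genes.

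The 5 genes whose levels were most like each of the 7, with the 7, CLCA3 and CCL24 left out, fell into 2 sets that overlapped. Among 11330 genes detected in at least 69 mice, Muc5ac (a gel-forming mucin), Fcgbp (a protein of mucus), Foxa3 and Spdef (transcription factors of goblet cells) were among the 5 nearest for SPRR2A, CAPN9, ERN2, SCIN and ADRA2A. The nearest of these other genes was Muc5ac for CAPN9 (r = 0.845) and ERN2 (0.803), Spdef for SPRR2A (0.766), Foxa3 for SCIN (0.695) and Fcgbp for ADRA2A (0.625). Muc5b was among the 5 for ERN2, SCIN and ADRA2A, and Fam3b for CAPN9. None of these was among the 5 nearest to FXYD4 or SLC26A4. Outside the 7, FXYD4 was nearest to Arg1 (arginase of alternatively activated macrophages, r = 0.699), Tnfrsf9 (a costimulatory receptor, 0.691), Retnlb (a secreted resistin-like protein, 0.679), Il4i1 (an amino acid oxidase induced by IL-4, 0.672) and Slc5a1 (the sodium-glucose cotransporter, 0.641). SLC26A4 was nearest to Slc5a1 (0.752), Arg1 (0.743), Il4i1 (0.722), Dok2 (0.720) and Bcap29 (0.709). FXYD4 and SLC26A4 thus shared 3 of their 5. Retnlb was also the third for SPRR2A (0.739). Beyond the 5 nearest the sets were not apart: SPRR2A had an r of 0.660 with Arg1, and SLC26A4 had 0.627 with Fcgbp. Bcap29 and Slc26a4 are next to each other on chromosome 12, with 0 protein-coding genes between them.

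**Figure D4:**
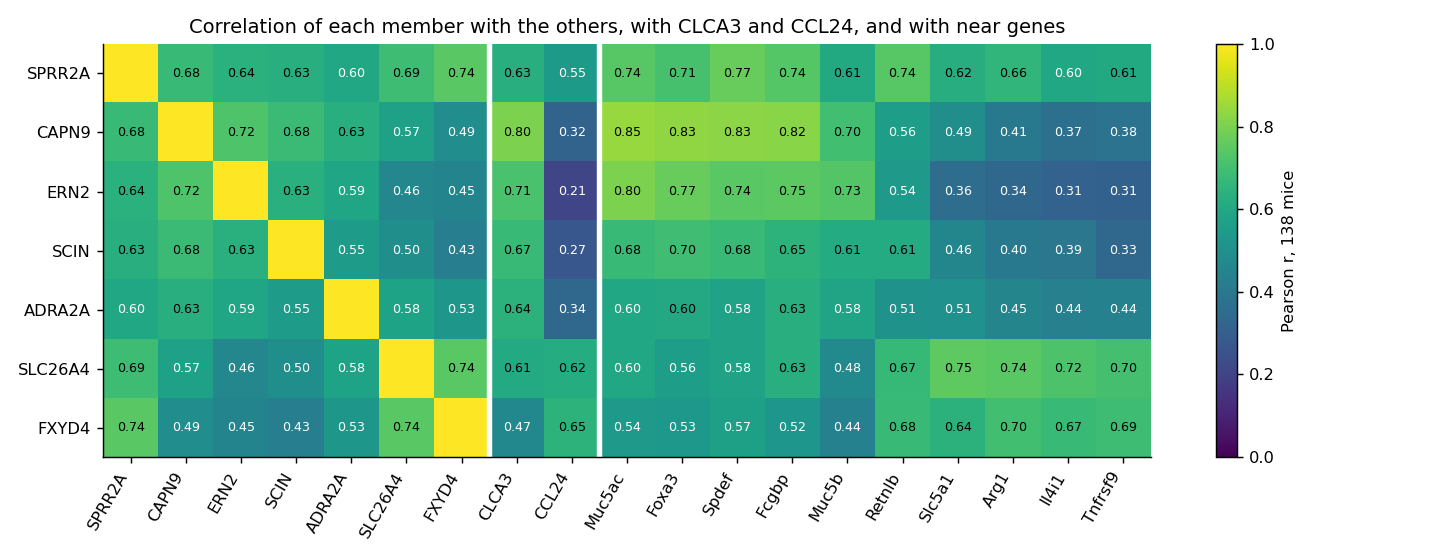
Pearson r over 138 mice of each gene (rows) with the other members, with CLCA3 and CCL24, and with 10 of the genes nearest to them (columns). Muc5ac reaches 0.845 with CAPN9 and 0.803 with ERN2, Slc5a1 reaches 0.752 with SLC26A4, Arg1 reaches 0.699 with FXYD4, and SPRR2A has 0.742 with Muc5ac and 0.743 with FXYD4.

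Because the members move together, the promoters of 4 of them are shown, 2 from the set nearest to goblet cell genes and then the 2 transport genes. RefSeq promoters (GRCm38.p6, 250 bases before to 50 after the start) were given for 6 members, as 8 sequences with the 3 Sprr2a copies. Ern2 has no entry. Capitals mark TTC and GAA with 4 bases between them (the spacing preferred by STAT6, the factor switched on by IL-4 and IL-13) or TATAAA. They are Sprr2a1 at chr3:92215585-92215884 (plus strand), Capn9 at chr8:124575861-124576160 (plus strand), Slc26a4 at chr12:31559935-31560234 (minus strand) and Fxyd4 at chr6:117937286-117937585 (minus strand), each 5′ to 3′.
Sprr2a1: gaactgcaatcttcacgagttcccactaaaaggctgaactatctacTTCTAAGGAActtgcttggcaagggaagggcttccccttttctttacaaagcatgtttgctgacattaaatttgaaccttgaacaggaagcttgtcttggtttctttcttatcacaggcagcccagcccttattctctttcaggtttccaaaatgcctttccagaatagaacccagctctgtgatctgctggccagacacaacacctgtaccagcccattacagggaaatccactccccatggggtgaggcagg
Capn9: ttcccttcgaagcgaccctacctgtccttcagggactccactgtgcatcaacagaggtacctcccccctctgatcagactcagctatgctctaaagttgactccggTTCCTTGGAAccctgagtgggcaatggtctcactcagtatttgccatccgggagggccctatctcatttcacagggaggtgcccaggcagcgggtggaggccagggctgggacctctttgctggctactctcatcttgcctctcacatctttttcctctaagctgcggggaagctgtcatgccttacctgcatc
Slc26a4: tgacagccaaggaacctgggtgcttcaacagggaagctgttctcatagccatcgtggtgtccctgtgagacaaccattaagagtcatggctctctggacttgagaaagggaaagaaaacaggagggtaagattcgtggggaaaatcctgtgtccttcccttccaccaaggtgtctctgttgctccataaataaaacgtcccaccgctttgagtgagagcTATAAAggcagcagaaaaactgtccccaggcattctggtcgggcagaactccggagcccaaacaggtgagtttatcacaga
Fxyd4: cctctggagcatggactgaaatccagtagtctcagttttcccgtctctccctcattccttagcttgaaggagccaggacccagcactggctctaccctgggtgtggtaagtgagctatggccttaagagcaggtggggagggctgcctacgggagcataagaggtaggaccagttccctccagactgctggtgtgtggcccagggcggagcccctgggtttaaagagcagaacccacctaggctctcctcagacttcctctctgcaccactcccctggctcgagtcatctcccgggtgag

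The motif of TTC, any 4 bases and GAA, searched like the others on both strands, was present in 4 of the 8 member promoters and in 6.95% of all 32851 promoters of this length. The 4 are those of Sprr2a1, Sprr2a2, Sprr2a3 and Capn9. The match is TTCTAAGGAA, starting at -204 in Sprr2a1 and Sprr2a2 and at -176 in Sprr2a3, and the Capn9 match is TTCCTTGGAA at -144. The Sprr2a promoters count as 1 sequence here: Sprr2a1 and Sprr2a2 are identical over 300 bases, and Sprr2a3 is identical to them over the 272 bases that overlap when shifted by 28. The shorter spacing TTCNNNGAA was found in Sprr2a3 only (8.30% of all promoters), without overlap with the longer one. TATAAA stands at -31 in Slc26a4 and -29 in Adra2a (13.6% of all). AGGAAGT, the core read by ETS factors, was found in Fxyd4, on the opposite strand, starting at position 3 of the transcript (9.35% of all). The forkhead core TGTTTAC and the XBP1-type element CCACGTCA were in none of the 8 windows (3.65% and 0.676% of all). These are matches of letters only.

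Whether the levels or slopes differed by a label of the mice could be tested, since the choice of the genes did not use it. Each title ends in a number, above 100 in 64 mice (high range) and 35 to 87 in 72 mice (low range), and 2 mice whose title and strain labels disagree were left out. What the number stands for is not given. SLC26A4 had a median of 9.96 in the high range and 10.2 in the low range, and its fitted mean difference was -0.28 ± 0.23 (high minus low, SE, adjusted p = 0.985), the largest in size among the 7. SPRR2A had medians of 7.44 in the high range and 7.04 in the low range, with a fitted mean difference of 0.032 ± 0.276. By limma with Benjamini-Hochberg adjustment 0 of the 7 genes passed the threshold of 0.05, as did 0% of all genes, and 0 of the 7 had an unadjusted p under 0.05, against 669 of all genes. The slopes on CLCA3 and on CCL24 did not pass a test of their difference between the ranges in any of the 7 either (0 of 7, with 0% of all genes called and 0 of the 7 under an unadjusted 0.05, against 922 and 1262 of all genes). With CLCA3 and CCL24 held, 0 of 7 differed between the ranges (0% of all genes), and CAPN9 was the 1 gene with an unadjusted p under 0.05 (0.23 ± 0.11, adjusted p = 0.883). Within the ranges the r of CAPN9 with CLCA3 was 0.822 in the high and 0.792 in the low range, and that of FXYD4 with CCL24 was 0.648 and 0.644. ERN2 with CCL24 had the widest gap, at 0.341 in the high and 0.081 in the low range (slope difference 0.24 ± 0.16, adjusted p = 0.746).

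Array brightness was a second measure outside the choice of the genes. On the array median intensity, 0 of the 7 genes had a slope past the threshold (limma, adjusted p from 0.582 to 0.966), against 30% of all genes. None of the 7 had an unadjusted p under 0.05. Their slopes lay between -0.10, for FXYD4, and 0.07, for SCIN.

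Scores of cell type markers, each the mean z value of the kept genes of a list, were then set against the 7 genes. The eosinophil score was itself tied to CLCA3 (r = 0.424) and CCL24 (0.695). Since the 7 were chosen for moving with type 2 genes, to which these markers are tied, their slopes on the eosinophil score are given with no test. They ran from 0.27 ± 0.08 log2 per SD of the score in ERN2 to 0.92 ± 0.09 in SLC26A4, and 12.3% of all genes were called rising. With CLCA3 and CCL24 held, the slopes are also given with no test, since holding these genes need not remove a choice made on a wider set. The largest was that of SLC26A4, 0.46 ± 0.10, and 0.999% of all genes were called rising. FXYD4 then had 0.25 ± 0.12, SCIN 0.31 ± 0.13 and ERN2 0.004 ± 0.084. The score rests on 5 kept markers of 8, of which Rnase2a, Prg2, Cebpe and Alox15 rose with CCL24 and Il5ra did not pass. In the 5 alternatives run for it, the SLC26A4 slope with both held lay between 0.455 and 0.466.

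Ciliated cell markers, which were nearly unrelated to CLCA3 (r = 0.121) and CCL24 (-0.003), gave another order of the genes. The score holds 9 kept markers of 12, and without covariates 4 of the 7 rose with it (7.13% of all genes). Of these, SPRR2A, CAPN9 and ADRA2A did not pass by limma without the mouse of line OR900 (adjusted p 0.101, 0.116 and 0.0701). With no filter on detection, SPRR2A and CAPN9 did not pass either (adjusted p 0.0888 and 0.0943). With CLCA3 and CCL24 held, 4 of the 7 rose with that score by limma, against 6.86% of all genes. ERN2 had a slope of 0.28 ± 0.05 (adjusted p = 3.73e-05), SPRR2A 0.30 ± 0.09 (adjusted p = 0.0204), ADRA2A 0.22 ± 0.07 (adjusted p = 0.0437) and CAPN9 0.17 ± 0.06 (adjusted p = 0.0321). SLC26A4 had -0.01 ± 0.078 (adjusted p = 0.961). ERN2 kept the call in the 5 alternatives run. Without the single mouse of line OR900 the adjusted p was 0.0602 for SPRR2A, 0.116 for CAPN9 and 0.0923 for ADRA2A, so that these 3 calls depend on 1 array. With no filter on detection it was 0.0553 for SPRR2A and 0.0944 for CAPN9, and with another normalization (neqc) 0.0592 for ADRA2A.

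Of the other 4 scores, those of alveolar type 2 cells and neutrophils were tested by limma with CLCA3 and CCL24 held, and none of the 7 genes passed. The T cell score (12 of 12 markers kept) was itself tied to CLCA3 (r = 0.281) and CCL24 (0.400), and the cardiac score to CLCA3. Slopes on both scores, without covariates and with CLCA3 and CCL24 held, are therefore given with no test, as for the eosinophil score. On T cell markers they ran from 0.15 ± 0.08 in ERN2 to 0.55 ± 0.13 in SPRR2A, and 5.46% of all genes were called rising. With CLCA3 and CCL24 held, the slopes on the T cell score ran from -0.06 ± 0.08 in ADRA2A to 0.11 ± 0.11 in SPRR2A, and 3.23% of all genes were called either way. Of the 7, all but SLC26A4 fell with alveolar type 2 markers (9 of 9 kept), 6 of 7 against 19.7% of all genes falling, and with both held 0 of 7 passed (29.5% of all called, 2 of 7 under an unadjusted 0.05). This score had an r of -0.162 with CLCA3 and -0.242 with CCL24, so its calls without covariates are not fully independent of the choice of the genes. Without the mouse of line OR900, the fall was past the threshold in SPRR2A and FXYD4 only (adjusted p 0.0521 to 0.0996 in the other 4), and with the mean of its kept probes FXYD4 did not pass (-0.23, adjusted p = 0.0666). Heart muscle cells also line the large veins of mouse lung. On cardiac muscle markers (8 of 9 kept) the slopes ran from 0.13 ± 0.12 in SLC26A4 to 0.51 ± 0.12 in SCIN, and 1.58% of all genes were called rising. All 8 kept cardiac genes also rose with CLCA3 and 0 of 8 with CCL24, and the score correlated with CLCA3 at 0.465. With both held, the slopes on the cardiac score ran from -0.23 ± 0.09 in SLC26A4 to 0.19 ± 0.06 in ERN2, and 1.23% of all genes were called either way. Neutrophil markers (9 of 10) were called for 0 of 7 with or without the covariates (1.68% and 1.08% of all genes called, 0 of 7 under an unadjusted 0.05 in both). This score averages markers that did not move alike. Retnlg (slopes of 0.60 on CLCA3 and 0.58 on CCL24) and Ltf (0.41 and 0.39) rose with both levels, and the other kept markers passed with neither. The part of any of these cells in the levels of the 7 genes was not tested.

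**Figure D5:**
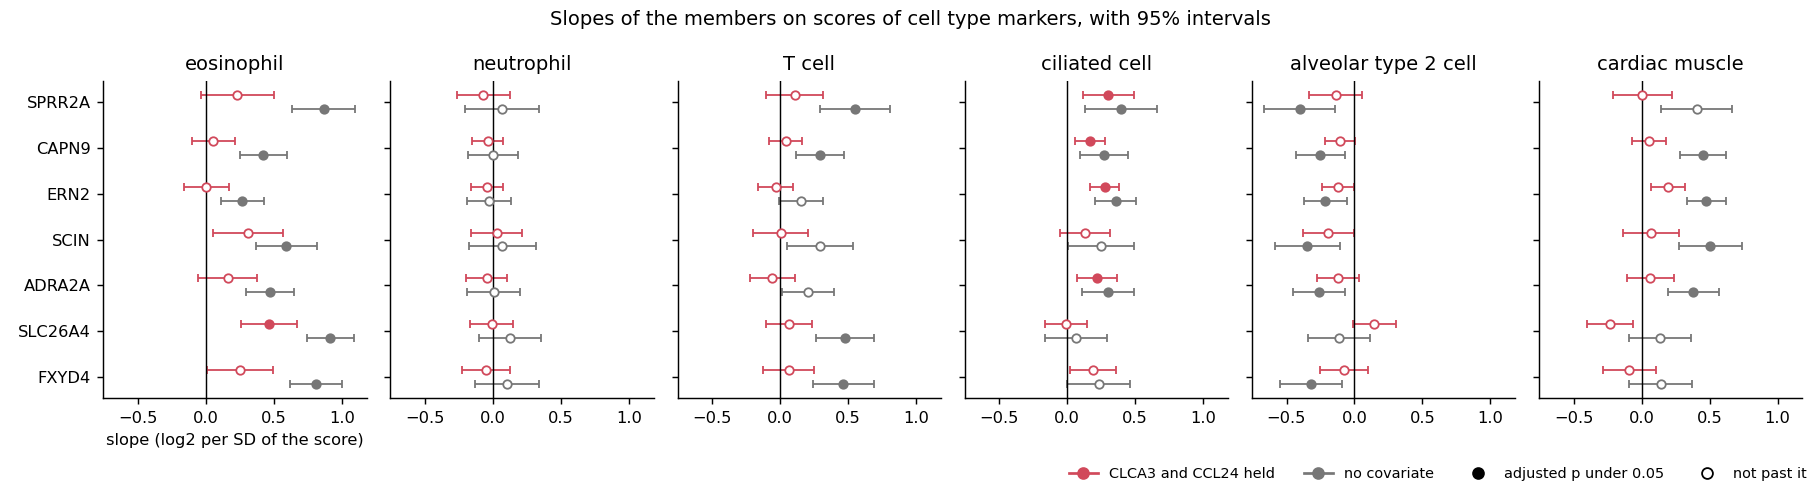
Slope of each gene (log2 per SD of the score, with 95% intervals) on 6 scores of cell type markers in 138 mice, with CLCA3 and CCL24 held (red) and with no covariate (grey), filled where the adjusted p was under 0.05. The red points filled are SLC26A4 for eosinophil markers and SPRR2A, CAPN9, ERN2 and ADRA2A for ciliated cell markers. Filling or its absence in the eosinophil, T cell and cardiac muscle panels is not read as a test. The genes were chosen for moving with genes to which these scores are tied.

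Lists of relatives and partners of the 7 genes were set against the same 2 levels. For background, limma with Benjamini-Hochberg adjustment over all genes called 4.69% of all genes rising and 3.37% falling with CLCA3, and 11.4% and 10.1% with CCL24. Slopes here are log2 per SD of 1 level. Of the SPRR family only Sprr1a was kept besides SPRR2A, and it passed with neither (adjusted p = 0.0512 with CLCA3). Of the markers of squamous epithelium, in which SPRR proteins are best known, the array had 4 of 10 kept, of which 0 were called with CLCA3 (0.011 to 0.111 log2 per SD). With CCL24, Krt14 (0.30 ± 0.08, adjusted p = 0.00169) and Trp63 (0.13 ± 0.03, adjusted p = 0.00149) rose, and Lor fell at the threshold (adjusted p = 0.05). Among 12 kept calpain genes, 0 rose and 2 fell with CLCA3, namely Capn2 (-0.16 ± 0.04, adjusted p = 0.00807) and Cast, the inhibitor of calpains (-0.08 ± 0.02, adjusted p = 0.0281). The Capn2 probes disagreed (r from -0.506 to 0.969 with the named one). With CCL24, Capn2 alone fell (adjusted p = 0.0437, and 0.0504 without the mouse of line OR5308). Of 6 kept gelsolin relatives of SCIN, 0 were called with CLCA3. Capg (0.21 ± 0.04, adjusted p = 3.91e-06) and Vill rose with CCL24.

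The partners of the stress sensor ERN2 were mostly not called with CLCA3. Of 26 kept genes of secretory stress in the endoplasmic reticulum, 2 rose with CLCA3 (Creb3l1, 0.09 ± 0.02, and Edem2, 0.10 ± 0.02, whose probes disagreed) and 0 fell. The paralogue of ERN2, Ern1, had 0.02 ± 0.04 (adjusted p = 0.769), and ERN2, which was chosen for such a slope, 0.69 ± 0.06. Xbp1, whose mRNA these sensors splice, had 0.01 ± 0.014 (adjusted p = 0.716), and the chaperone Hspa5 had 0.003 ± 0.025. The Hspa5 probe had a mean level of 5.815, near the floor of the scale, and the kept Ern1 probes did not move together (r = -0.042). Little can therefore be read from the flat slopes of Hspa5 and Ern1. With CCL24, 8 rose and 1 fell. The largest rises were Sdf2l1, an endoplasmic reticulum cochaperone (0.27 ± 0.05, adjusted p = 1.61e-05), Pdia4, a disulfide isomerase (0.14 ± 0.03, adjusted p = 0.000422) and Creb3l1 (0.13 ± 0.02, adjusted p = 2.47e-06), while Ddit3 fell (-0.09 ± 0.03). Of 5 kept adrenergic receptors besides ADRA2A, 0 rose with either level. Adra1a fell with both (-0.14 ± 0.03 on CCL24, adjusted p = 0.00121), and Adrb3 fell with CCL24 (adjusted p = 0.00348). The other kept Adra1a probe had an r of 0.335 with the named one.

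Transport genes were mixed. Of 3 kept relatives of SLC26A4, Slc26a9 fell with both levels (-0.10 ± 0.03 on CLCA3, adjusted p = 0.0232), and Slc26a6 rose with CCL24 (0.07 ± 0.02, adjusted p = 0.000751). The other kept Slc26a9 probes had an r of 0.086 to 0.668 with the named one. Of 5 kept relatives of FXYD4, Fxyd3 rose with CLCA3 (0.29 ± 0.05, adjusted p = 1.06e-06) and Fxyd5 with CCL24 (0.10 ± 0.02, adjusted p = 0.000298). The other kept Fxyd5 probes had an r of 0.355 and 0.684 with the named one. The sodium pump itself, which FXYD proteins adjust, had 0 of 6 kept subunit genes called with CLCA3 and 1 falling with CCL24 (Atp1b2). Of 17 kept genes of airway ion and fluid transport, 3 rose with CLCA3: the water and glycerol channel Aqp3 (0.17 ± 0.03, adjusted p = 7.35e-06), the potassium channel Kcnn4 (0.12 ± 0.03, adjusted p = 0.00194) and the anion exchanger Slc4a2 (0.08 ± 0.02, adjusted p = 0.025). With CCL24, 5 rose, with Kcnn4 (0.19 ± 0.02, adjusted p = 1.35e-10), Aqp3 (0.20 ± 0.03, adjusted p = 1.41e-08) and Car2 foremost, and 4 fell, among them the sodium channel subunits Scnn1b (-0.15 ± 0.04, adjusted p = 0.000383) and Scnn1g (-0.11 ± 0.03, adjusted p = 0.00266). Cftr had -0.12 ± 0.08 on CLCA3 (adjusted p = 0.369). The median slope over the list was -0.015 on CLCA3 and -0.011 on CCL24, against 0.002 and -0.002 over all genes. SLC26A4, chosen on such slopes, had 0.84 ± 0.09 on CLCA3 and 0.84 ± 0.09 on CCL24. With marker scores of 4 other cell types held, 2 of the 10 list genes called with CLCA3 (Aqp3 and Fxyd3) and 23 of the 31 called with CCL24 kept their call.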

How the data were processed

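Lung RNA of 138 mice was measured on 1 array each. Per the file headers the deposited scanner table gives an unnormalized intensity and a detection p-value for each probe and mouse. The authors also deposited normalized log2 values, made with GenomeStudio and R 2.9.2 by RMA with quantile normalization, per the submitters' processing notes. Whether they corrected the background is not stated in those notes. The median, taken for the first log2 column only, was 5.57. Each of the 138 columns matched its own array's intensities best (r from 0.9959), so scale and direction are known and genes were not centred.

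The log2 values were used as deposited. A probe was kept when detected (p under 0.05) in at least 14 mice (24450 probes), and the kept probe with the highest average stood for its gene (16617 genes). Target names were updated through RefSeq (GRCm38.p6): 22853 of 45281 probes matched a symbol, 11915 a synonym, and 10513 kept the file's name. Fits used limma 3.58.1 (lmFit, eBayes) in R 4.3.3, with Benjamini-Hochberg adjustment over all genes tested and a threshold of 0.05. Correlations used Python 3.11.15, numpy 2.4.6 and pandas 2.3.3. The fits were tested on simulated data. Members and lists were chosen with earlier results of these data known. The text names the members, CLCA3, CCL24, the 5 genes nearest each member in r (members, CLCA3, CCL24 and clone, predicted and locus names passed over) and genes of the lists. Cdh1 and Epcam are named as tissue markers only. Single mice were chosen as extremes in level or distance from the fit on both genes. Alternatives were neqc on the intensities (offset 16), other filters and probe rules, covariates, and mice left out.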

Additional observations from a re-analysis of the deposited data

How the results depend on the processing

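All 7 genes kept positive slopes on CLCA3 and on CCL24 taken singly under every alternative in which they were tested (detection in every mouse left only SLC26A4). The r of SPRR2A with CCL24 turned to -0.003 on its probe ILMN_3150677. Averaging its kept probes lowered the SPRR2A slopes to 0.353 on CLCA3 and 0.298 on CCL24, against 1.02 and 0.88. Counts of all genes moved as follows. For CLCA3, 1339 calls became 280 with scores of ciliated, cardiac, alveolar type 2 and smooth muscle genes held, 885 without the 2 mice farthest from the median, and 660 with undetected values left out. The CLCA3 term of the joint model had 538, then 262 for genes detected in every mouse and 331 with undetected values left out. Array brightness gave 4984, and 7720 with no filter. With CLCA3 and CCL24 held, the eosinophil score gave 198 of 3811, the neutrophil score 180 of 279 and the T cell score 536 of 1362. For genes detected in every mouse, the ciliated score gave 1126 of 1778 and the cardiac score 83 of 291. The cause was not tested, apart from fewer genes being tested under the stricter filter. The alternatives without OR900, and those of the scores with both genes held, were chosen after seeing the data. Leaving out undetected values stood for restricting fits to mice with both probes detected. A slide block was not run, since no slide is given in the files used. No paired analysis was possible because the labels give 1 group. Levels near 5, at the floor of the scale, are close to background and are measured poorly.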
